A study of Mus musculus with 4 samples.

Results

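NF-kB is described here through the genes of its subunits and of the inhibitors that it switches on itself, in macrophages sorted from mouse liver. The set held 10 genes, chosen by symbol: the subunit genes Nfkb1, Nfkb2, Rel and Relb, the IkB inhibitor genes Nfkbia and Nfkbie, the nuclear IkB-like genes Bcl3 and Nfkbiz, and the ubiquitin-handling inhibitor genes Tnfaip3 and Tnip1. These genes and the further gene lists below were chosen with earlier results of these data known. Their counts beside the share of all genes are therefore descriptions and not tests. A value was read for 9 of the 10, out of 22180 genes. Nfkb1 was not analysed here. Each of the 9 had 1 probe set with a single gene symbol: 17359967 for Nfkb2, 17261107 for Rel, 17487325 for Relb, 17281219 for Nfkbia, 17337927 for Nfkbie, 17487457 for Bcl3, 17330967 for Nfkbiz, 17239597 for Tnfaip3 and 17262855 for Tnip1.

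The livers came from C57/BL6 mice, 10 wild type (WT) and 10 labelled mPGES-1-/- (KO), taken 48 h after reperfusion, so all 4 groups were from reperfused livers and none was an uninjured control. mPGES-1, the product of Ptges, makes prostaglandin E2. The macrophages were sorted into fractions high and low for Ly6C, which marks monocytes newly arrived from blood, and each combination of genotype and Ly6C fraction was measured on 1 Mouse Gene 2.0 ST array: WT Ly6C-hi, WT Ly6C-low, KO Ly6C-hi and KO Ly6C-low. The labels do not say how old the mice were, in which cells Ptges is disrupted, which other sort markers were used or whether mice were pooled for an array. With 1 array per group there is no replicate against which a pairwise difference can be checked, and none is given a p-value.

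NF-kB dimers wait in the cytoplasm bound to IkB proteins until receptors for microbial products, tumour necrosis factor or interleukin-1 activate the IkB kinase, which marks IkB for destruction. The freed dimers bind kB sites in DNA and induce inflammatory genes, among them the genes of their own inhibitors, so that a burst of activity is followed by new IkB, A20 (Tnfaip3) and ABIN1 (Tnip1). In liver, macrophages and recruited monocytes are a main site of this response after reperfusion. mRNA levels of these genes do not measure NF-kB in the nucleus.

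All values are log2 levels as the authors deposited them, and a difference of 1 is a 2-fold difference. A difference was counted only where the brighter of the 2 arrays read at least 6. As a guide to background, 36 of 1405 genes for olfactory, vomeronasal and trace amine receptors, which macrophages are not known to use, exceeded 5.32 in WT Ly6C-hi and 5.98 in WT Ly6C-low, then 6.09 in KO Ly6C-hi and 5.54 in KO Ly6C-low. A robust SD of 0.50 for a difference between 2 arrays was derived from all 4. It is the spread over genes of the WT gap between the Ly6C fractions minus the KO gap, divided by the square root of 2. It takes that variation as noise and is not the spread seen in any pair of arrays. The 5306 genes at a level of 6 in at least 1 array did not sit at the same height on the arrays. Their median in KO Ly6C-hi minus that in WT Ly6C-hi was -0.50. Differences are therefore also given with every array shifted to a common median of these genes (centred). With no level floor, the median difference between these 2 arrays over all 22180 genes was 0.07, in the other direction. The SD over all probe sets was lowest in KO Ly6C-hi, at 1.69 against 1.83 in WT Ly6C-hi. KO Ly6C-hi thus had a narrower spread of levels, which shifting an array to a common median does not change. Of 10 macrophage markers, 10 were at 6 or above in every array, and Ly6c2 read 7.70 and 8.94 in the Ly6C-hi arrays against 3.84 and 4.33 in the Ly6C-low arrays. Ptges read 5.65 in WT Ly6C-hi and 5.69 in WT Ly6C-low, then 6.32 in KO Ly6C-hi and 6.20 in KO Ly6C-low. It was not lower under the KO label, and the position of its probes relative to the disrupted part is unknown here, so the genotype is that of the label throughout.

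**Figure D1:**
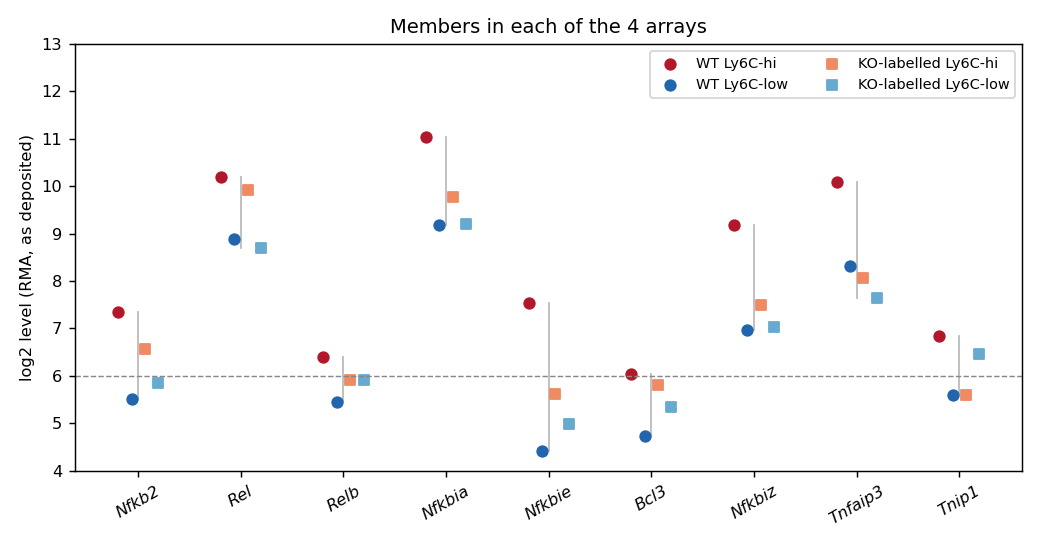
Log2 level of each measured gene (vertical axis) in each of the 4 arrays, 1 point per array, with the grey line spanning the lowest to the highest array and the dashed line at the level of 6. WT Ly6C-hi is the highest array for all 9 genes as deposited, from 6.03 for Bcl3 to 11.04 for Nfkbia. It also has the highest median over the 5306 genes.

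As deposited, all 9 measured genes were highest in WT Ly6C-hi. That array also had the highest median over the 5306 genes, 6.67. The median was 6.36 in WT Ly6C-low, 6.17 in KO Ly6C-hi and 6.55 in KO Ly6C-low. How many of all genes were highest in WT Ly6C-hi was not counted. With the arrays centred, 6 of the 9 were highest in WT Ly6C-hi, and Rel, Relb and Bcl3 were highest in KO Ly6C-hi. The genes differed in how far they stood above background. Rel, Nfkbia, Nfkbiz and Tnfaip3 were above the background guide in all 4 arrays, and the other 5 were at or below it in WT Ly6C-low, so a difference that uses a low array of those 5 has an uncertain size.

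Among the subunits, Rel encodes c-Rel, the subunit prominent in lymphoid and myeloid cells. It read 10.20 in WT Ly6C-hi and 8.89 in WT Ly6C-low, then 9.91 in KO Ly6C-hi and 8.70 in KO Ly6C-low. Both Ly6C-hi arrays lay above both Ly6C-low arrays, whichever the genotype label. Nfkb2, which encodes the p100 precursor of p52, read 7.35, 5.51, 6.56 and 5.84 in the same order. It too was higher in both Ly6C-hi arrays. Relb, whose product pairs with p52 in the non-canonical branch, read 6.39, 5.46, 5.91 and 5.92, and it passed a level of 6 in WT Ly6C-hi alone.

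Of the cytoplasmic IkB genes, Nfkbia encodes IkB-alpha, the fast-acting inhibitor that is made anew after each burst. It read 11.04 in WT Ly6C-hi and 9.19 in WT Ly6C-low, then 9.78 in KO Ly6C-hi and 9.21 in KO Ly6C-low. The Ly6C-low arrays were 0.02 apart, and both Ly6C-hi arrays were above them. Nfkbie, which encodes IkB-epsilon, read 7.54, 4.41, 5.62 and 4.98. It passed a level of 6 in WT Ly6C-hi and in no other array.

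Nfkbiz and Bcl3 encode IkB-like proteins that act in the nucleus, where they bind p50 or p52 at target genes. Nfkbiz read 9.17 in WT Ly6C-hi and 6.97 in WT Ly6C-low, then 7.50 in KO Ly6C-hi and 7.03 in KO Ly6C-low. Only WT Ly6C-hi stood far from the rest. Bcl3 read 6.03, 4.73, 5.80 and 5.34 and was below the background guide in 3 of the 4 arrays.

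Tnfaip3 encodes A20, which edits ubiquitin chains to stop signalling upstream of the IkB kinase. It read 10.10 in WT Ly6C-hi and 8.32 in WT Ly6C-low, then 8.06 in KO Ly6C-hi and 7.65 in KO Ly6C-low. Both KO arrays were below both WT arrays. Tnip1, which encodes ABIN1, a partner of A20, read 6.85, 5.60, 5.59 and 6.45. KO Ly6C-low was its second highest array, and KO Ly6C-hi was below the background guide.

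Because NF-kB induces several of its own inhibitors, the promoters of all the listed genes with a sequence entry were searched for the kB consensus, a 10-base pattern, on both strands with overlapping matches merged. The sequences are from RefSeq (GRCm38.p6), and the window ran from 250 bases before to 50 bases after each annotated start. An entry was found for 7 of the 10 genes, the others being Nfkb1, Relb and Nfkbiz. Printed here are the 150 bases before the start for 5 of them, in the direction of transcription, with each match in capitals: Nfkbia, chr12:55492648-55492797 on the minus strand; Nfkbie, chr17:45555550-45555699 on the plus strand; Tnfaip3, chr10:19015411-19015560 on the minus strand; Tnip1, chr11:54962941-54963090 on the minus strand; and Rel, chr11:23770970-23771119 on the minus strand.
Nfkbia: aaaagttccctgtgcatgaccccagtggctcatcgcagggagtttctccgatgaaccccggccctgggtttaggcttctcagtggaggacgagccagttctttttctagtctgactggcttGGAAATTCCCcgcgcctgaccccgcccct
Nfkbie: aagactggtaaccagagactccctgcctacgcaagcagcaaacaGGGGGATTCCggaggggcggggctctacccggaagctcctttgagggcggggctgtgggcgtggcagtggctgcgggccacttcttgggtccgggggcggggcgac
Tnfaip3: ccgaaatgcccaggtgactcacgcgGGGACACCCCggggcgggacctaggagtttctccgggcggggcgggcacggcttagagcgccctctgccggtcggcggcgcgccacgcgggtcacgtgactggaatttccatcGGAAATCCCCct
Tnip1: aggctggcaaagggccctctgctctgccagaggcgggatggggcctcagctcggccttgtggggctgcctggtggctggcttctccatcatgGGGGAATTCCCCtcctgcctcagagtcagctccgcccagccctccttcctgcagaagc
Rel: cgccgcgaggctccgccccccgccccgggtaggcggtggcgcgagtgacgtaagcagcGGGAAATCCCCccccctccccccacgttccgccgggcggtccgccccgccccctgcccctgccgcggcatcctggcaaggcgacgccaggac

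Each of the 7 genes with an entry held at least 1 match, in 9 of its 10 windows together. A match was present in 8.46% of 32851 windows, in 9.55% of 27025 genes, and in 12.6% of the 4223 genes with a window that reached a level of 6. Counting the first base of the transcript as 1 and the base before it as -1, the Nfkbia match GGAAATTCCC began at -29 and the Nfkbie match GGGGGATTCC at -106. Tnfaip3 held GGGACACCCC at -125 and GGAAATCCCC at -12, Rel held GGGAAATCCCC at -92, and Tnip1 held GGGGAATTCCCC at -58. The Bcl3 match, GGGAAGTCCC, began at 3, and Nfkb2 had matches at -39 and -11 from the first of its 3 annotated starts. A match describes the letters of the window, and no binding was measured.

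In WT livers, the question is whether the Ly6C-hi and Ly6C-low macrophages differ in this feedback circuit. All 9 genes were higher in Ly6C-hi, 8 of them by 2-fold or more, with a median difference of 1.78. Of these 2 arrays, Nfkb2, Relb, Nfkbie, Bcl3 and Tnip1 reached 6 only in Ly6C-hi, so for them the level rule itself favours that direction. Of the 4762 genes with a usable level, 3089 were higher in Ly6C-hi, 20.3% by 2-fold or more, with a median of 0.30. After centring, 5 of the 9 reached 2-fold. Over all genes, 966 were higher and 313 lower by 2-fold as deposited, against 631 and 509 after centring.

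Nfkbie had the largest difference among the 9, 3.13 (8.73-fold) as deposited and 2.81 centred, with its level in Ly6C-low in the background range. Nfkbiz followed at 2.20 (4.60-fold), and Nfkbia at 1.85 and Nfkb2 at 1.84 were close to each other. Counted from the gene most higher in Ly6C-hi, these 4 ranked 50th, 153rd, 260th and 266th of 4762 usable genes. Tnfaip3 differed by 1.78 and ranked 290th on the same count. Rel at 1.31, Bcl3 at 1.30 and Tnip1 at 1.25 passed 2-fold as deposited but fell just short when centred, at 0.99, 0.98 and 0.93. Relb was under 2-fold, at 0.94 as deposited and 0.62 centred.

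**Figure D2:**
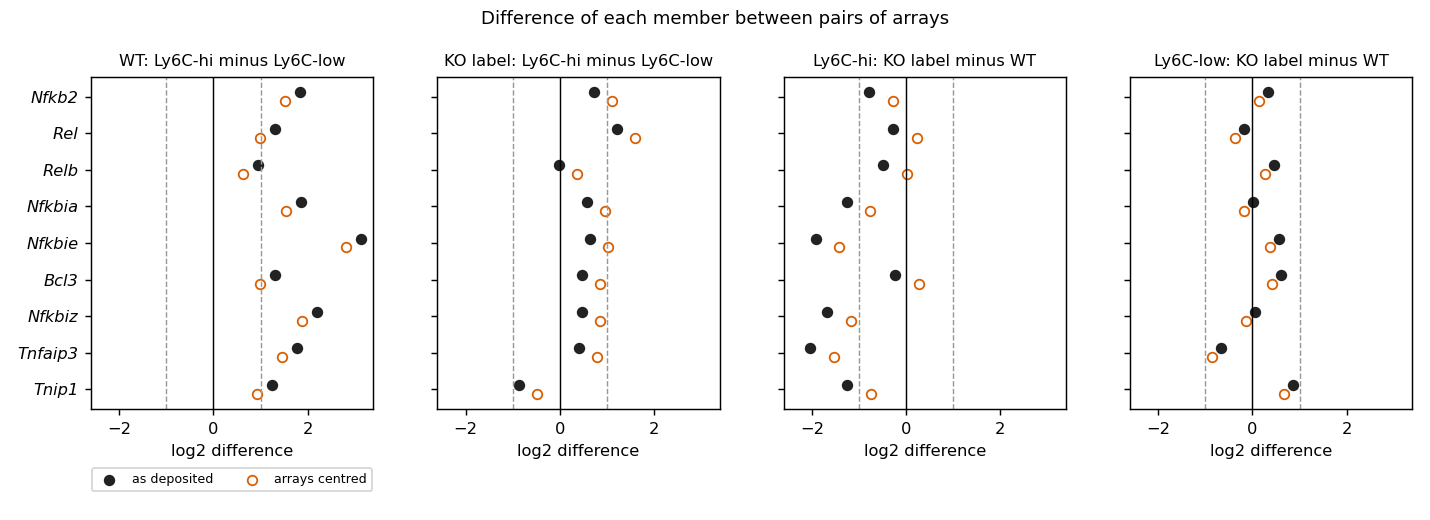
Log2 difference (horizontal axis) of each measured gene in the 4 pairs of arrays, with filled points as deposited, open points after centring each array, and dashed lines at a 2-fold difference. In WT, 8 filled points pass 2-fold, and under the KO label Rel alone does.

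Under the KO label the same comparison gave smaller differences for most of the genes. Rel alone passed 2-fold, at 1.21 (1.59 centred, ranking 104th of 4541 genes counted from the most higher), and the median of the 9 was 0.47 (0.52 over the 6 with a usable level). Among all usable genes, 4.47% were higher by 2-fold or more and 20.7% lower, with a median of -0.37. Centring took the counts over all genes from 203 higher and 938 lower to 494 and 576. It brought 2 members past 2-fold among the 6 with a usable level, Rel and Nfkb2 (1.10). Nfkb2 differed by 0.72 as deposited, Nfkbie by 0.64, Nfkbia by 0.57, Nfkbiz and Bcl3 by 0.47 each and Tnfaip3 by 0.41. Relb was level at -0.01 as deposited and 0.37 centred. Tnip1 was the one gene lower in Ly6C-hi under both scalings, by -0.86 as deposited and -0.48 centred.

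Between the Ly6C-hi arrays, KO against WT, the 5 genes Tnfaip3, Nfkbie, Nfkbiz, Nfkbia and Tnip1 were lower under the KO label by 2-fold or more, and none of the 9 was higher. For all usable genes, 20.6% were lower by 2-fold or more and 2.34% higher. The members' median was -1.26, against -0.53 for all usable genes. Of these 2 arrays, Relb, Nfkbie, Bcl3 and Tnip1 reached a level of 6 only in WT, so for them the level rule itself favours a lower KO value. Tnfaip3 had the largest difference, -2.04 (4.11-fold lower), followed by Nfkbie at -1.92 (3.78-fold lower) and Nfkbiz at -1.67 (3.19-fold lower). Counted from the gene most lower, these ranked 123rd, 149th and 224th of 4410 usable genes, and the KO Ly6C-hi level of Nfkbie was in the background range, as was that of Tnip1. They also passed 2-fold after centring, at -1.54, -1.42 and -1.17.

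Nfkbia and Tnip1 both differed by -1.26 as deposited and by -0.76 centred, which is under 2-fold. The subunits and Bcl3 differed less, Nfkb2 by -0.79, Relb by -0.48, Rel by -0.28 and Bcl3 by -0.23. Centring turned the sign of 3 of these, to 0.22 for Rel, 0.02 for Relb and 0.27 for Bcl3, and left Nfkb2 at -0.28. Over all usable genes the counts went from 103 higher and 910 lower to 256 and 305 with centring.

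**Figure D3:**
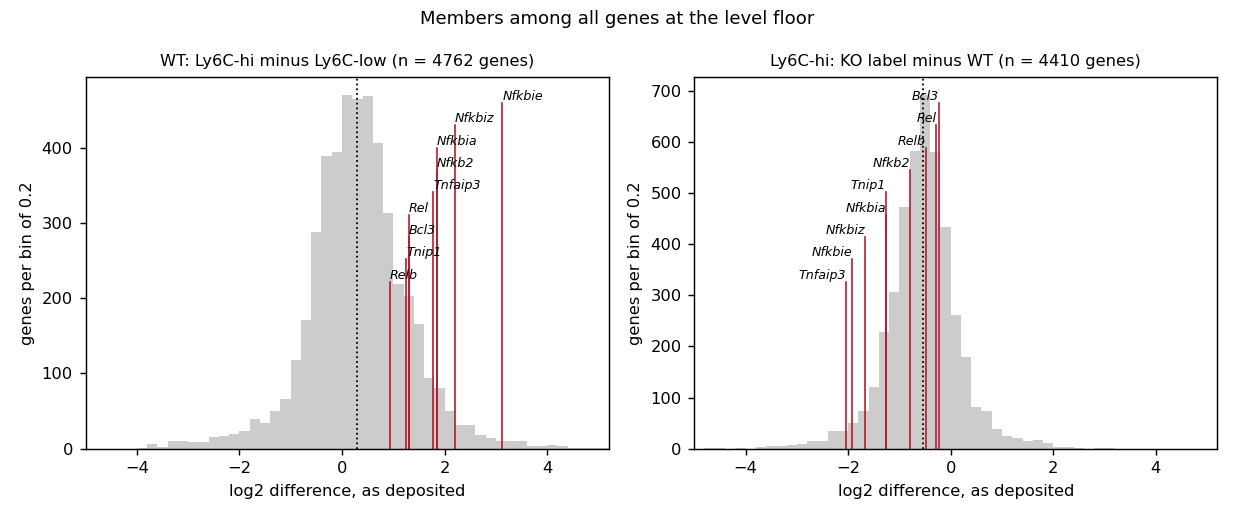
Histograms of the log2 difference over all usable genes (grey, number of genes per bin of 0.2) for WT Ly6C-hi minus Ly6C-low and for Ly6C-hi KO minus WT, with the measured genes as red lines and the median of all genes dotted. In the left panel all 9 lie above the median of 0.30; in the right panel Bcl3, Rel and Relb lie above the median of -0.53 and the other 6 below it.

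Between the Ly6C-low arrays no member differed by 2-fold, and 5 of the 9 had a usable level. All usable genes were higher by 2-fold or more under the KO label in 6.89% of cases and lower in 0.81%. The members' differences ran from -0.67 for Tnfaip3 to 0.85 for Tnip1. Over the 5 with a usable level the median was 0.02 (-0.18 centred), against 0.15 for all usable genes, and over all 9 it was 0.33. Nfkbia at 0.02 and Nfkbiz at 0.06 were level as deposited, and turned to -0.18 and -0.14 with centring. Over all genes, 306 were higher and 36 lower as deposited, and 208 and 88 when centred.

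The gap between the Ly6C fractions was wider in WT than under the KO label for all 9 genes as deposited. The same held for 4386 of the 5306 usable genes. It was wider by 2-fold or more for 6 of the 9, where 32.0% of the 5306 genes were. The median of the 9 was 1.28 against 0.67 for all genes. Relb, Nfkbie and Bcl3 reached a level of 6 only in WT Ly6C-hi. Nfkbie led at 2.49, followed by Tnip1 at 2.11, Nfkbiz at 1.73, Tnfaip3 at 1.37, Nfkbia at 1.28 and Nfkb2 at 1.12. Centring left 3 past 2-fold, Nfkbie at 1.79, Tnip1 at 1.42 and Nfkbiz at 1.03, and turned Rel from 0.10 to -0.60. The counts over all genes were 1697 wider and 164 narrower as deposited, and 446 and 519 when centred. This difference of differences has no error of its own, because it uses up all 4 arrays.

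An additive limma fit of Ly6C fraction and genotype label, with 1 residual degree of freedom, treats that difference of differences as noise. Averaged over genotype labels, Nfkbia was higher in Ly6C-hi by 1.21 (SE 0.339, limma adjusted p = 0.0086) and Rel by 1.26 (SE 0.367, limma adjusted p = 0.0129). They were the 2 of 9 that passed at 0.05, where 2.6% of 5306 genes passed in that direction. Nfkbie followed at 1.88 (limma adjusted p = 0.0569) and Nfkbiz at 1.34 (limma adjusted p = 0.0736). After centring, Nfkb2 (limma adjusted p = 0.037) and Nfkbie (limma adjusted p = 0.0452) passed in place of Nfkbia and Rel. For the genotype label none of the 9 passed in limma, 1 had an unadjusted p under 0.05, and 0.32% of all genes passed. That 1 was Tnfaip3, lower under the KO label by -1.35 (SE 0.431, limma adjusted p = 0.253).

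The rest of the pathway was read through lists of genes by role, given as counts and medians. Of the other subunit and IkB genes, Rela, which encodes the p65 subunit, read 7.20 in WT Ly6C-hi and 5.99 in WT Ly6C-low, then 6.68 in KO Ly6C-hi and 6.85 in KO Ly6C-low. Nfkbid, which encodes a further nuclear IkB, read 8.40, 6.16, 6.53 and 6.29, a pattern with WT Ly6C-hi far above the rest like that of Nfkbiz. Nfkbib, which encodes IkB-beta, was instead highest in KO Ly6C-hi, at 7.66, 6.99, 7.85 and 6.72.

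In WT, Ly6C-hi against Ly6C-low, 4 of the 4 ligand genes with a usable level were higher by 2-fold or more, and so were 9 of 16 receptor genes (1 was lower), 5 of 12 kinase and adaptor genes, 6 of 10 other negative regulators and 23 of 34 target genes. Their medians were 2.21, 1.38, 0.86, 1.11 and 1.75, and the share of all usable genes higher by 2-fold was 20.3%. Centred, the higher counts were 3, 9, 3, 4 and 22, against 13.3% of all usable genes. With no level floor, which lets in genes under 6 in both arrays, 4 of 10 ligand genes were higher by 2-fold, at a median of 0.47. The other lists then gave 9 of 22, 6 of 22, 6 of 16 and 23 of 43, against 5.35% of all genes. Between the Ly6C-hi arrays, KO against WT, none of the listed genes with a usable level was higher by 2-fold. Lower by 2-fold or more were 4 of 4 ligands, 8 of 16 receptors and 4 of 13 kinases and adaptors. So were 5 of 10 other negative regulators and 27 of 33 targets, against 20.6% of all usable genes. Centred, the lower counts were 4, 4, 2, 2 and 20, against 6.92% of all usable genes, and 1 receptor gene was higher. Dropping the level floor gave 4 of 10 ligands lower and 1 higher, at a median of -0.76. The other lists then gave 8 of 22, 4 of 22, 5 of 16 and 27 of 43 lower, against 5.17% of all genes. The ligands Tnf, Il1a and Il1b are in the target list as well.

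Tnf, a main activator of the pathway, read 9.57 in WT Ly6C-hi and 7.47 in WT Ly6C-low, then 7.85 in KO Ly6C-hi and 7.28 in KO Ly6C-low. Il1b read 12.10, 9.31, 9.93 and 8.33. Il1a, which encodes a second interleukin-1 ligand, was high in 3 arrays and low in KO Ly6C-hi, at 9.70, 8.53, 5.92 and 8.79. Among targets, Il23a, which encodes a subunit of interleukin-23, read 8.80 in WT Ly6C-hi and 3.76, 4.38 and 3.36 elsewhere, all in the background range. Cxcl3, a neutrophil-attracting chemokine gene, read 10.20, 6.81, 6.02 and 6.26, and Csf1, the gene of the macrophage growth factor, 9.51, 5.97, 5.86 and 6.91. Among the other negative regulators, Irak3, which blocks signalling from Toll-like and interleukin-1 receptors, read 8.39, 6.44, 6.87 and 6.51, and N4bp1 read 8.31, 5.86, 6.14 and 6.27. The KO Ly6C-hi levels of Il1a, Cxcl3 and Csf1 were under the background guide of that array, 6.09. In WT Ly6C-low, Csf1 and N4bp1 were under its guide of 5.98.

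**Figure D4:**
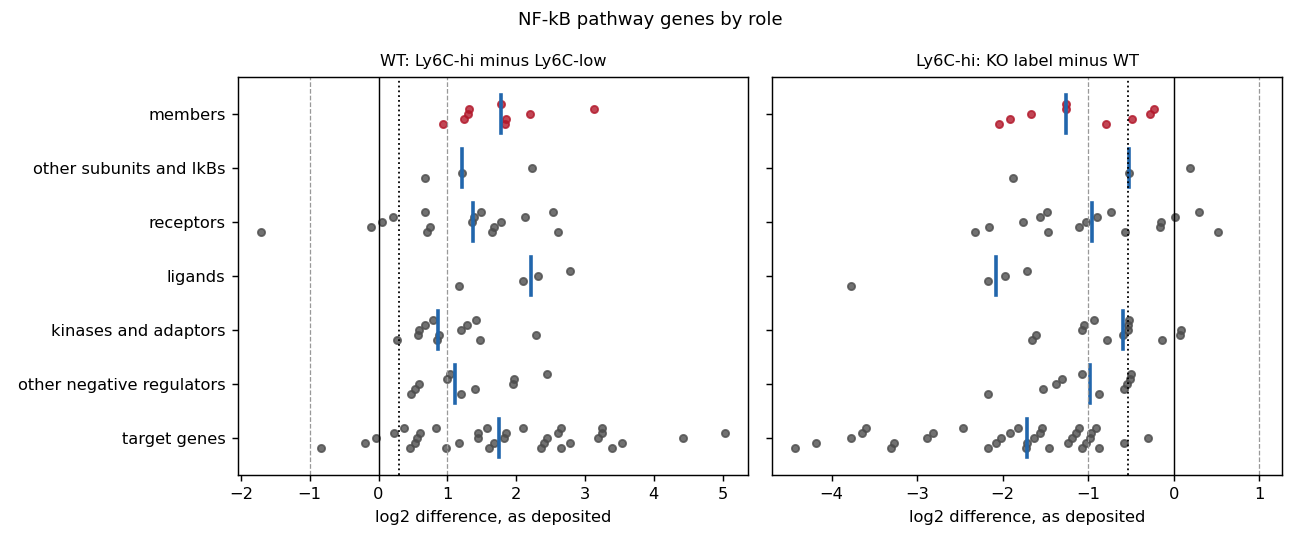
Log2 difference (horizontal axis) of every usable gene in each list of pathway genes, 1 point per gene, with the list's median in blue, the median of all usable genes dotted and 2-fold differences dashed. Every list's median lies above 0.30 in the left panel (WT, Ly6C-hi minus Ly6C-low), and the ligands and targets lie lowest in the right panel (Ly6C-hi, KO minus WT), at medians of -2.07 and -1.72.

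The genes whose profile over the 4 arrays was most like the mean profile of the 9 were found by Euclidean distance of log2 levels about each gene's own mean, among 5297 other genes. The nearest were Ppp1r15a at 0.061, Tut7 at 0.070, Pnpla7 at 0.101, Ncf4 at 0.105 and Map3k8 at 0.110, where the median gene was at 1.33. Ppp1r15a read 10.08 in WT Ly6C-hi and 8.38 in WT Ly6C-low, then 9.02 in KO Ly6C-hi and 8.54 in KO Ly6C-low. The members themselves were more spread out, from 0.235 for Nfkbia to 1.03 for Nfkbie, so the mean profile describes Nfkbia and Nfkb2 (0.320) better than Tnip1 (0.986) or Nfkbie.

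Markers of other cells also differed between the arrays, in orders that varied with the cell type. The mean level of 15 neutrophil markers reached 8.89 in WT Ly6C-hi, against 5.50 in WT Ly6C-low, 6.71 in KO Ly6C-hi and 4.99 in KO Ly6C-low, with 13, 6, 10 and 4 of them at 6 or above. Their single-gene levels ran from 5.67 to 11.28 in WT Ly6C-hi and from 2.94 to 9.62 in KO Ly6C-hi. WT Ly6C-hi was the highest array for the neutrophil list, as it was for the 9 genes as deposited and for 6 of them centred. The median of the 5306 genes was also highest there as deposited. Mmp9 and Lcn2 stand in both the neutrophil and the target list.

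The 9 measured inflammatory monocyte markers averaged 8.22, 6.63, 8.60 and 6.58, with KO Ly6C-hi the highest array. As deposited, 8 of these 9 markers were higher in KO than in WT Ly6C-hi, and 1 was lower, by -1.84. The 9 members were all highest in WT Ly6C-hi as deposited, but 3 of them were highest in KO Ly6C-hi when centred. For 17 sinusoidal endothelial markers the mean was 4.67, 7.67, 4.13 and 9.21, with 1, 15, 0 and 17 at 6 or above, so both Ly6C-low arrays held endothelial transcripts and both Ly6C-hi arrays had few. The 8 Kupffer cell markers averaged 5.00, 6.48, 4.46 and 5.95, and 10 hepatocyte markers 6.73, 7.46, 6.29 and 7.33. The 10 macrophage markers averaged 8.85, 8.76, 8.23 and 8.57, a range of less than 1. Single markers differed more than this mean. In KO Ly6C-hi, 3 of the 10 were lower than in KO Ly6C-low by 2-fold or more and none higher (3 and 2 centred). Against WT Ly6C-hi, 3 of the 10 were also lower and none higher (1 and none centred). The shares of all usable genes lower by 2-fold as deposited were 20.7% and 20.6%. The part of other cells in the members' differences was not tested, and in such bulk samples fewer cells of a type and less RNA per cell cannot be told apart.

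**Figure D5:**
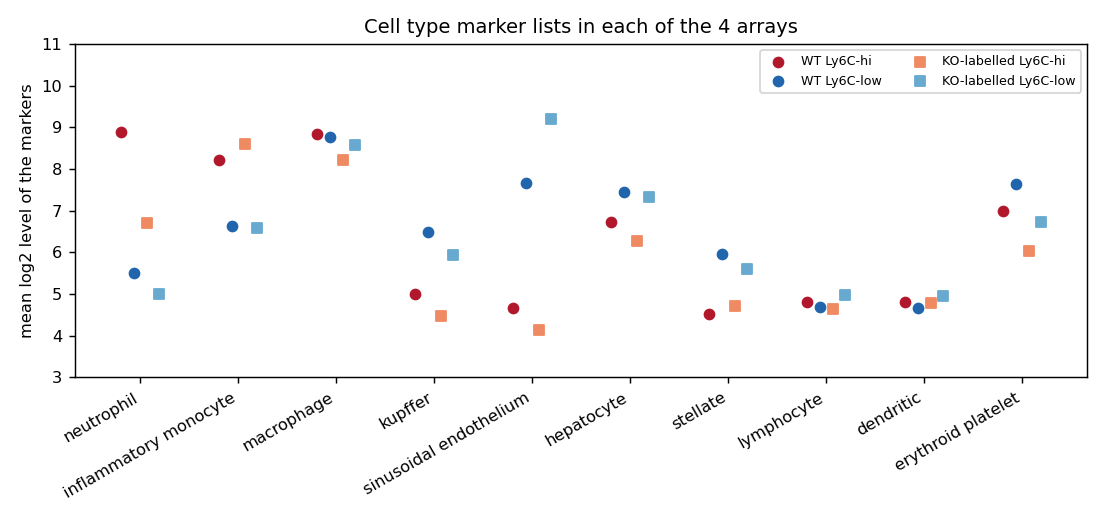
Mean log2 level (vertical axis) of the measured markers of each cell type in each of the 4 arrays, 1 point per array. The neutrophil list is highest in WT Ly6C-hi, at 8.89, and the sinusoidal endothelial list is highest in KO Ly6C-low, at 9.21.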

How the data were processed

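TRIzol RNA (5 ng) was labelled with the WT Pico kit and hybridised, per the labels. The deposited values are RMA log2 levels per gene from Expression Console, per the labels. RMA is a method of background correction, quantile normalisation and probe summary. The sources used here give no software version or annotation build.

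Of 41345 probe sets, 23521 had 1 gene symbol, 1814 several and 16010 none. Only those with 1 symbol were used, and 23328 of them took their current symbol from RefSeq (GRCm38.p6) by Entrez ID. For 1082 genes with several probe sets, the one with the highest mean was taken. Differences were counted at 2-fold among genes whose brighter array read 6 or more. limma 3.58.1 in R 4.3.3 fitted fraction and genotype with eBayes and a trend on level over 5306 genes, with Benjamini-Hochberg adjustment at 0.05, after a check on simulated data. In it the prior degrees of freedom were infinite, so each SE follows the trend and not the gene's own spread, and p-values measure the spread between these arrays only. Their number limits the precision. Python 3.11.15, numpy 2.4.6, pandas 2.3.3 and matplotlib 3.10.9 did the rest.

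The members and gene lists were chosen with earlier results of these data known. Named genes were the members, Ptges, Ly6c2, Rela, genes from up to 4 of the largest differences per list in WT Ly6C-hi against Ly6C-low and in Ly6C-hi KO against WT, the 5 nearest profiles, and list overlaps. Nfkbib and Nfkbid complete a list of 3. Alternatives were centring on the median gene, quantile normalisation, the mean of probe sets, a level floor of 7, no floor, and limma without a trend.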

Additional observations from a re-analysis of the deposited data

Results flagged for a closer look

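The difference between KO and WT had opposite signs in the 2 Ly6C fractions for several genes as deposited. With 1 array per group, this was not tested. Of the 5 members with a usable level in both pairs of arrays, 3 had opposite signs, where 61.7% of 3548 genes did. Centred, 2 of the 5 did, Tnip1 and Rel, where 55.9% of genes did. Rel gained its opposite signs by centring, at 0.22 in Ly6C-hi against -0.38 in Ly6C-low. Tnip1 differed by -1.26 in Ly6C-hi and 0.85 in Ly6C-low, -2.11 apart, and kept its opposite signs when centred. Nfkbiz (-1.67 against 0.06, -1.73 apart) and Nfkbia (-1.26 against 0.02, -1.28 apart) were close to level in Ly6C-low and lost the opposite sign when centred. The other 4 were under a level of 6 in both Ly6C-low arrays, so the sign there has little meaning: Nfkbie (-1.92 against 0.57, -2.49 apart), Nfkb2 (-0.79 against 0.33, -1.12 apart), Relb (-0.48 against 0.46, -0.945 apart) and Bcl3 (-0.23 against 0.60, -0.83 apart).

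The difference between the Ly6C fractions had opposite signs under the 2 genotype labels for Tnip1, 1.25 in WT and -0.86 under the KO label, 2.11 apart. This was not tested either. It was 1 of the 6 members usable in both pairs, where 43.3% of 3997 genes had opposite signs. Tnip1 kept them when centred, where 36.0% of genes had them. Its lower level in each pair, 5.60 in WT Ly6C-low and 5.59 in KO Ly6C-hi, was in the background range. Relb (0.94 and -0.01, 0.945 apart) was under a level of 6 in both KO arrays, and its signs did not differ when centred.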

How the results depend on the processing

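Centring moved the members' counts at 2-fold most: from 8 to 5 higher in WT Ly6C-hi against Ly6C-low, from 1 to 2 under the KO label, from 5 to 3 lower in Ly6C-hi KO against WT, and from 6 to 3 for the wider WT gap, whose median went from 1.28 to 0.59. The limma fraction effect was called in either direction for 359 of 5306 genes. It was called for 573 of 5252 with quantile normalisation, 235 of 2569 with a floor of 7 and 74 of 22180 with no floor. The members called, all higher in Ly6C-hi, were 2 of 9 (138 of 5306 genes in that direction). With quantile normalisation they were 6 of 8 (254 of 5252 genes), and with the mean of probe sets 3 of 9 (129 of 5065). A floor of 7 gave 3 of 6 (116 of 2569), and no trend 1 of 9 (144 of 5306). With no floor it was 0 of 9 (7 of 22180), and 6 members and 1626 genes had an unadjusted p under 0.05. The limma genotype effect was called for 17 genes, and for 10 with quantile normalisation, 6 without a trend, and 0 when centred or with no floor, where 296 and 486 had an unadjusted p under 0.05. A floor of 7 brought 1 of 6 members, Tnfaip3, past the threshold for genotype, where 20 of 2569 genes were called lower under the KO label. The cause was not tested. The additive limma fit already compares the fractions within each genotype label. No paired analysis by replicate number was possible because each group held 1 array, and no group would remain if its array were left out.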

Other observations

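The kB consensus was found in the windows of 12 of 33 target genes (36.4%), 3 of 12 other negative regulators, 4 of 22 kinases and adaptors, 3 of 18 receptors, 1 of 9 ligands and 1 of 3 other subunit and IkB genes (Nfkbid). The share was 9.55% over all genes with a window and 12.6% over those that reached a level of 6, and differences between the lists were not tested. The 12 targets included Cxcl1, Cxcl2, Cxcl3, Cxcl10, Csf1, Sod2, Nlrp3 and Irf1. Outside the members, the 464 usable genes with a match had a median WT Ly6C-hi minus Ly6C-low difference of 0.44, against 0.31 for 3321 genes without one, and 27.2% against 19.4% were higher by 2-fold or more. Under the KO label the same difference had medians of -0.42 for 445 genes with a match and -0.39 for 3147 without. There 3.6% against 4.16% were higher by 2-fold or more. Between the Ly6C-hi arrays, KO minus WT, the medians were -0.61 and -0.54, and 24.1% against 20.3% were lower by 2-fold or more. These are descriptions of 1 array per group, and base composition, which differs between promoters, was not compared.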
